A study of Mus musculus with 6 samples.

Results

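The classical histone deacetylases other than Hdac3 are described here in limb bone RNA of newborn mice that are wild type or carry a conditional knockout of Hdac3. They were taken as the 10 rows of the deposited count table named Hdac1, Hdac2, Hdac4, Hdac5, Hdac6, Hdac7, Hdac8, Hdac9, Hdac10 and Hdac11, out of 43346 genes. All 10 were found once each, and all 10 passed the filter on low counts. The comparison asks whether any of them stood higher where Hdac3 was reduced, that is, whether their transcripts compensated for it.

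The study sequenced 6 libraries of limb bone from C57BL/6 pups at 1 day of age, 3 labelled wild type and 3 labelled Hdac3 CKO, the latter marked in the series' design as a Prx1 knockout. Cre under Prx1 control is known to act in early limb mesenchyme, from which bone, cartilage and tendon cells descend, while blood cells, muscle fibres and vessel lining have other origins and would keep Hdac3. The construct, the floxed allele and whether the wild type pups carried Cre are not given in the labels. Bones were freed of soft tissue before RNA extraction, and RNA of fore- and hindlimbs went into the preparation. Nothing in the labels says that libraries came from separate pups, so p-values here measure only how these libraries spread. Hdac3 CKO replicate 3 differed from the others in sex-linked genes, as given below, so it was not a repeat of their RNA. Wild type replicate 3 stood apart in summed cartilage markers, at 6900 CPM against 1470 and 1240 CPM in the other wild type libraries. The spread among the libraries other than Hdac3 CKO replicate 3 may still be partly technical, which was not tested.

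Histone deacetylases remove acetyl groups from lysines of histones and other proteins. The class I enzymes HDAC1 and HDAC2 are the catalytic subunits of the nuclear SIN3, NuRD and CoREST complexes, HDAC3 works in a corepressor complex of its own, and HDAC8 acts outside these complexes. The class IIa enzymes HDAC4, HDAC5, HDAC7 and HDAC9 have little catalytic activity of their own, bind MEF2 transcription factors, move between nucleus and cytoplasm when phosphorylated, and can recruit the HDAC3 complex. In the skeleton HDAC4 restrains the maturation of growth plate chondrocytes, HDAC5 is known for its part in the control of Sost in osteocytes, and HDAC7 for repression of RUNX2 activity. The class IIb enzymes HDAC6 and HDAC10 act mainly on tubulin and on acetylated polyamines, and HDAC11 is the sole member of class IV.

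Because members of a family can share reads, their sequences were compared first. The coding sequences of Hdac1 and Hdac2, the closest pair, were identical at 75.7% of 1443 aligned bases, and the pairs within class IIa at 61.5% to 69.0%. No transcript of a member shared an exact run of 50 bases with a transcript of another member. Shorter matches, or matches with mismatches, were not examined in this way. The stretch of 90 coding bases in which Hdac1 and Hdac2 are most alike is shown because it is where their reads would be hardest to separate, with the 12 bases that differ between the 2 genes in capitals. The third line is the same stretch in Gm10093, an annotated processed pseudogene on chromosome 17 (78491565 to 78493541), which has 0 differences from Hdac1 there and is written without capitals.
Hdac1: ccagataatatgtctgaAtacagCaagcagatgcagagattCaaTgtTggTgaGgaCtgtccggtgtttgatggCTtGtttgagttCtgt
Hdac2: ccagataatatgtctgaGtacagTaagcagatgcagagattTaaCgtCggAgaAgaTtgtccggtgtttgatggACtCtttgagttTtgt
Gm10093: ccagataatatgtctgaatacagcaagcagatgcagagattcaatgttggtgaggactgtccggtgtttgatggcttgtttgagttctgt
Of the 50-base words in Hdac1 transcripts, 35.5% also occur in transcripts of other genes, most of them in Gm10093. The treatment of reads with several matches is not given in the sources used here, so the level of Hdac1 is uncertain in a way that the level of Hdac2, with 0 shared words, is not. Hdac4 shares 23.0% of its exon bases with Gm26720, an RNA annotated on the opposite strand, and Hdac11 shares 15.4% with Gm44002. The deposited gene model of Hdac9 spans 34371503 to 34528889 on chromosome 12, a span that holds 49.4% of the exon bases GENCODE M21 gives to this gene, and its length is 4422 bases where M21 has 14665. Hdac7 has 5530 bases where M21 has 6755, and Hdac4 15375 where M21 has 15813. Reads from exons outside a deposited model would not be in its count.

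The targeted gene Hdac3 (ENSMUSG00000024454, chromosome 18, 37935844 to 37954988) checks the labels. Values per library are CPM, read counts scaled to library size with TMM factors, which can be compared between libraries for 1 gene but not between genes of unequal length. Hdac3 had 48.4, 47.4 and 50.3 CPM in wild type and 31.8, 29.4 and 28.3 CPM in Hdac3 CKO. It fell to 0.613 of its wild type level (95% interval 0.509 to 0.738), and the 2 genotypes did not overlap (edgeR quasi-likelihood test, Benjamini-Hochberg adjusted p = 0.027). The direction held in all 23 alternatives, but the threshold was missed in 11 of them. Among these were 5 of the 6 omissions of a single library, all but that of Hdac3 CKO replicate 1, with edgeR adjusted p-values of 0.068 to 0.13. In bulk RNA, fewer cells of a type and less RNA per cell cannot be told apart.

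None of the 10 other deacetylases passed the test. At an adjusted p under 0.05 in edgeR's quasi-likelihood test, 0 were higher and 0 lower, where 0.703% of the 20210 genes tested were higher, 0.475% lower and 1.18% either. Without adjustment, 1 of the 10 had a p under 0.05, Hdac2, where 15.0% of all tested genes had. DESeq2 and limma-voom also called 0 and likewise had 1 at an unadjusted p under 0.05. The log2 fold changes of Hdac3 CKO over wild type ran from -0.31 to 0.24 with a median of -0.10, and 4 of the 10 were above 0. Their median size without regard to sign was 0.21, close to the 0.23 of all tested genes, whose median was 0.0010. The smallest adjusted p among them was 0.30.

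A p over the threshold does not show that a gene was equal in both genotypes, so the 95% interval of each change was taken from the same fit. All 10 intervals lay within a 2-fold change in both directions, as did 68.1% of all tested genes. For 9 of the 10, Hdac4 being the exception, the interval also ended below a rise of 1.5-fold, as it did for 60.2% of all tested genes. The highest upper bound was that of Hdac4, at 1.56 times wild type, and the lowest lower bound that of Hdac9, at 0.629. The members' standard errors had a median of 0.14 on the log2 scale, against 0.21 for all tested genes, with 221 to 5619 counts per member and library.

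**Figure D1:**
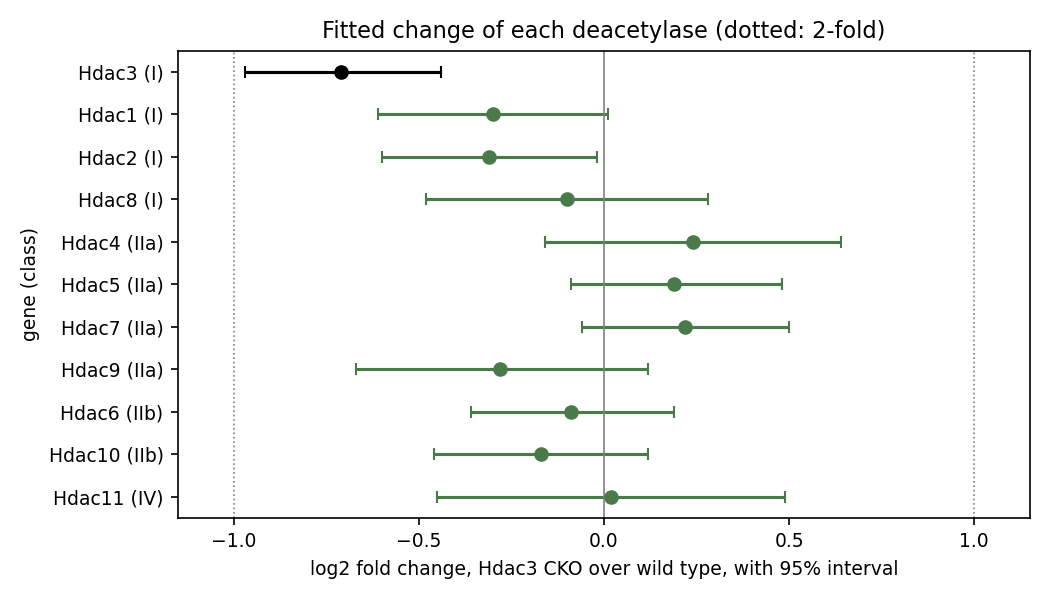
Fitted log2 fold change of Hdac3 and the 10 other deacetylases (points) with 95% intervals from edgeR's quasi-likelihood fit (bars) over 3 wild type and 3 Hdac3 CKO libraries. Dotted lines mark a 2-fold change. All 10 intervals lie within it, and of the 10 only that of Hdac2 leaves out 0, ending at -0.02.

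Of the class I members, Hdac1 and Hdac2 stood lower in every Hdac3 CKO library than in any wild type library. Hdac2 (chromosome 10, 36974544 to 37001889) had 91.7, 96.1 and 85.6 CPM in wild type and 65.3, 75.8 and 79.5 CPM in Hdac3 CKO. The nearest values of the genotypes were 85.6 and 79.5 CPM, and the lowest value was that of Hdac3 CKO replicate 1. Its ratio of Hdac3 CKO to wild type was 0.807 (95% interval 0.662 to 0.984), or -0.31 ± 0.13 (SE) on the log2 scale (edgeR quasi-likelihood test, unadjusted p = 0.037, adjusted p = 0.30). Hdac1 (chromosome 4, 129516104 to 129542713) had 19.4, 23.9 and 21.3 CPM in wild type and 18.4, 17.2 and 16.8 CPM in Hdac3 CKO. Its ratio was nearly the same, 0.811 (0.653 to 1.01; edgeR adjusted p = 0.34). The copy Gm10093 had 3.46, 6.24 and 4.01 CPM in wild type and 3.39, 3.17 and 3.09 CPM in Hdac3 CKO, and like Hdac1 was highest in wild type replicate 2. With its counts added to Hdac1 the log2 fold change was -0.34 ± 0.15 (SE) in place of -0.30 (edgeR adjusted p = 0.32). The 95% interval of that sum was -0.66 to -0.01.

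Hdac8 (X chromosome, 102284639 to 102505359), which deacetylates the cohesin subunit SMC3, had the lowest level of the 10. Wild type had 5.97, 5.33 and 6.14 CPM and Hdac3 CKO 5.67, 5.19 and 5.37 CPM. The genotypes overlapped, and the ratio was 0.930 (0.715 to 1.21).

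Of the class IIa members, 3 had a mean above wild type and 1 a mean below it, and none passed the test. Hdac7 (chromosome 15, 97792664 to 97844502), known also from vessel lining and developing lymphocytes, had 96.7, 82.9 and 80.2 CPM in wild type and 104, 98.8 and 100 CPM in Hdac3 CKO. It was the single member whose Hdac3 CKO values all lay above the wild type values, by a margin of 96.7 to 98.8 CPM, and its ratio was 1.17 (0.962 to 1.42). Hdac5 (chromosome 11, 102194432 to 102230166) had 106, 93.3 and 109 CPM in wild type and 126, 117.7 and 108 CPM in Hdac3 CKO. The genotypes overlapped through Hdac3 CKO replicate 3 and wild type replicate 3, and the ratio was 1.14 (0.938 to 1.39).

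Hdac4 (chromosome 1, 91928779 to 92180341) had 43, 33.9 and 38.8 CPM in wild type and 37.4, 58.0 and 41.2 CPM in Hdac3 CKO. A single library, Hdac3 CKO replicate 2, stood above all the others, and the other 2 Hdac3 CKO libraries lay within the wild type range. Its log2 fold change was 0.24 ± 0.18 (SE), and 0.03 without that library. Gm26720, on the opposite strand, was highest in that same library, at 2.89 CPM against 1.3 to 2.01 CPM in the other 5. Hdac9 (chromosome 12) had 14.4, 16.3 and 14 CPM in wild type and 9.64, 13.2 and 14.1 CPM in Hdac3 CKO. Its low value was that of Hdac3 CKO replicate 1, and the log2 fold change of -0.28 ± 0.18 (SE) was -0.14 without it.

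Neither class IIb member passed the test. Hdac6 (X chromosome, 7930120 to 7947889), the tubulin deacetylase, had 21.3, 21.6 and 20.7 CPM in wild type and 19.8, 20.3 and 19.8 CPM in Hdac3 CKO. The genotypes did not overlap, yet the ratio was 0.942 (0.777 to 1.14) and the adjusted p 0.77 in edgeR's test. Hdac10 (chromosome 15, 89123307 to 89128700) had 18.8, 17.1 and 17.6 CPM in wild type and 15.9, 15.5 and 16.1 CPM in Hdac3 CKO. It too was lower in all 3 Hdac3 CKO libraries, with a ratio of 0.889 (0.726 to 1.09). Hdac11 (chromosome 6, 91156665 to 91174692), of class IV, had 15.8, 21 and 18.6 CPM in wild type and 24.8, 14.3 and 17.1 CPM in Hdac3 CKO. Hdac3 CKO replicate 1 was the highest and Hdac3 CKO replicate 2 the lowest of all 6 libraries, and the log2 fold change of 0.02 ± 0.21 (SE) was -0.25 without replicate 1 of Hdac3 CKO and -0.08 without replicate 1 of wild type.

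The values of 5 of the 10 members therefore did not overlap between the genotypes, 4 of them lower (Hdac1, Hdac2, Hdac6 and Hdac10) and 1 higher (Hdac7). Among all tested genes 22.5% did not overlap, 10.9% lower and 11.5% higher. With 10 genes chosen as a family, this count was not tested.

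**Figure D2:**
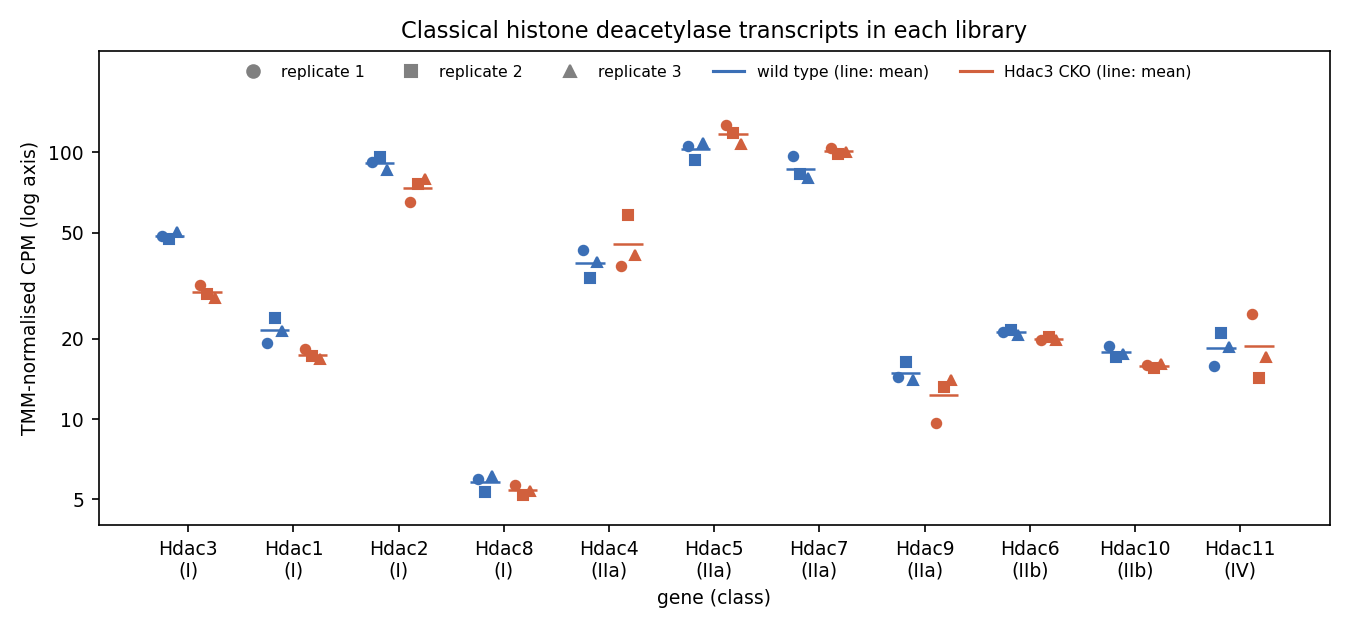
TMM-normalised CPM (log axis) of Hdac3 and the 10 other deacetylases in each of 3 wild type (blue) and 3 Hdac3 CKO (orange) libraries. Symbols mark the replicate and lines the mean of a genotype. Hdac3 is clearly separated, while Hdac4 is high in 1 Hdac3 CKO library (58.0 CPM) and Hdac9 low in another (9.64 CPM).

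The upstream sequences of Hdac2, Hdac6 and Hdac7 are shown because these are the members with non-overlapping values whose RefSeq entry (GRCm38.p6) starts where the deposited gene model starts. RefSeq entries were found for 8 of the 10 members and not for Hdac1 and Hdac10. Each line gives the 250 bases before the start site, on the strand of the gene, with the GC box (GGGCGG or its complement CCGCCC) and the CCAAT box (CCAAT or its complement ATTGG) in capitals.
Hdac2, chr10:36974294-36974543, plus strand: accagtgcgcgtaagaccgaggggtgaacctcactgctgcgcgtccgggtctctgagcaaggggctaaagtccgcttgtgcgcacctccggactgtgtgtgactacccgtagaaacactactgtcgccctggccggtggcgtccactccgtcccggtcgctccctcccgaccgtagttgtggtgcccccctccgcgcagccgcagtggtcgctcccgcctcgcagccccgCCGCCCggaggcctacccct
Hdac6, chrX:7947890-7948139, minus strand: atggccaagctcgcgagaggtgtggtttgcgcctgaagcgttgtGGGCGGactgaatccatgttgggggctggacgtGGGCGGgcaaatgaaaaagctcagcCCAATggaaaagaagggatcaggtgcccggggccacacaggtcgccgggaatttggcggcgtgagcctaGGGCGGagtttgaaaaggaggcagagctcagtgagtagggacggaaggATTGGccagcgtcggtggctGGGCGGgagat
Hdac7, chr15:97844503-97844752, minus strand: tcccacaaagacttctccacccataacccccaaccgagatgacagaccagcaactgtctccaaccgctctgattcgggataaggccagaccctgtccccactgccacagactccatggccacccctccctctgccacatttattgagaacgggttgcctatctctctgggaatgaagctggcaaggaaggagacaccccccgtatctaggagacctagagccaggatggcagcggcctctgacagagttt
The Hdac2 window held 1 GC box and 0 CCAAT boxes, the Hdac6 window 4 and 2, and the Hdac7 window 0 of both. Of 32851 windows of this length in the table, 32.7% held a GC box and 33.8% a CCAAT box on either strand. These matches describe the letters only. Hdac7 has 4 starts in the table. The window of another of them (97831496 to 97831745) held 1 GC box and 0 CCAAT boxes, and the windows of the rest 0 of both. Gene-level counts do not show which start was used.

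Levels of different genes were compared per length, in the RPKM values of the authors. In wild type Hdac2 was the most abundant of the family, at 16.9 ± 2.1 RPKM (SD, n = 3), followed by Hdac7 at 12.9 ± 0.69, Hdac3 at 10 ± 0.84 and Hdac5 at 9.66 ± 0.66. Hdac1 (5.22 ± 1.0 RPKM), Hdac10 (4.36 ± 0.17), Hdac11 (4.01 ± 0.89), Hdac6 (3.02 ± 0.29) and Hdac9 (2.80 ± 0.45) formed a run in which each gene's wild type range overlapped that of the next, as the ranges of Hdac3 and Hdac5 did. Hdac4 (2.07 ± 0.079) and Hdac8 (0.994 ± 0.066) stood below without overlap. The level of Hdac9 rests on a short gene model, and that of Hdac4 on a model of 15375 bases, of which any unused part would lower its RPKM.

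The ratio of Hdac2 to Hdac7 was lower in every Hdac3 CKO library than in any wild type library. In the deposited RPKM Hdac2 stood above Hdac7 in all 3 wild type libraries, where their RPKM ratio was 1.17, 1.43 and 1.32, and below it in all 3 Hdac3 CKO libraries, at 0.776, 0.948 and 0.979. Which of the pair is higher in Hdac3 CKO depends on gene length: with M21 exon lengths the ratios were 1.43, 1.75 and 1.61 in wild type and 0.948, 1.16 and 1.2 in Hdac3 CKO. Hdac3 was level with Hdac5 in wild type, with ratios of 0.999, 1.11 and 1.01, and stood at 0.550, 0.544 and 0.574 of it in Hdac3 CKO. How a library is scaled does not enter these ratios. These pairs were chosen after their values were seen, and no test was made of them.

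Added up, the 10 members gave 57.5, 67.5 and 60.9 RPKM in wild type and 56.2, 55.5 and 54.2 RPKM in Hdac3 CKO, a ratio of means of 0.892. With CPM per kilobase after TMM scaling the sums were 76.3, 75.2 and 72.8 in wild type and 73.4, 72.9 and 72.6 in Hdac3 CKO, which overlapped, with a ratio of 0.976. Hdac3 itself went from 10 to 5.62 RPKM. On neither scale was the mean sum of the other members above that of wild type. Library totals in place of TMM factors moved the median of all tested genes to -0.18 and that of the members to -0.28, so relative to all genes the members stood at nearly the same place under both.

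The makeup of the sum differed by class, which was described and not tested. Gene by gene, with Hdac3 in the sum, the shares of Hdac5 and Hdac7 were higher and that of Hdac2 lower without overlap. The shares of the other members overlapped. In these shares the mean of Hdac3 itself went from 13.9% to 9.22%, and that of the 10 members together from 86.1% to 90.8%. A member's share of this sum can therefore rise without a rise in its level, and the CPM values of Hdac5 overlapped. Of the summed RPKM of the 10 members, class IIa took 46.7%, 41.9% and 44.8% in wild type and 51.5%, 52.2% and 49.9% in Hdac3 CKO. Class I without Hdac3 took 35.9%, 39.3% and 36.6% in wild type and 28.7%, 31.6% and 32.7% in Hdac3 CKO. Neither share overlapped between the genotypes. Class IIb took 11.9% ± 0.25 (SD, n = 3) in wild type and 11.1% ± 0.11 in Hdac3 CKO, also without overlap. Class IV overlapped, at 6.42% ± 0.94 and 6.66% ± 1.9. A share shows unequal change and not which class moved: the summed level of class IIa was 26.8, 28.3 and 27.3 RPKM in wild type and 28.9, 29.0 and 27.1 RPKM in Hdac3 CKO, while that of class I was 20.6, 26.5 and 22.3 RPKM against 16.2, 17.5 and 17.7 RPKM. The RPKM sums of class IIa overlapped, with a ratio of means of 1.03, while on the TMM scale they did not, at 31.5 to 35.6 against 36.3 to 38.0 CPM per kilobase and a ratio of 1.12. With GENCODE M21 exon lengths in place of the deposited ones, class IIa took 37.4% to 42.5% in wild type and 45.8% to 48.4% in Hdac3 CKO.

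**Figure D3:**
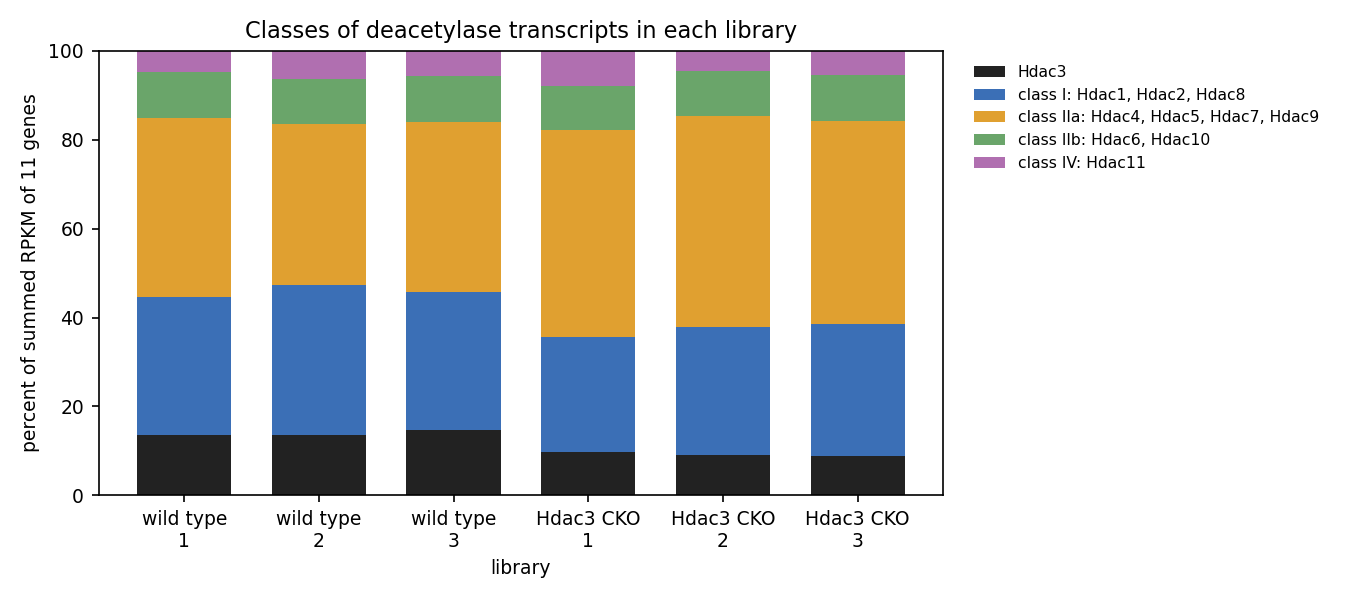
Share of the summed RPKM of 11 deacetylase genes taken by Hdac3 and by each class of the others, in percent, in each of 3 wild type and 3 Hdac3 CKO libraries. With Hdac3 in the sum, class IIa takes 36.2% to 40.3% in wild type and 45.5% to 47.5% in Hdac3 CKO, and Hdac3 13.5% to 14.6% and 8.84% to 9.71%.

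The partners of these enzymes were examined in 9 lists of corepressor complexes, sirtuins, class IIa partners and kinases, and substrate pathways. Leaving out Hdac3, 0 of 93 genes passed the test in either direction in edgeR's quasi-likelihood test, 10 (10.8%) had an unadjusted p under 0.05 where 15.0% of all tested genes had, and DESeq2 called 1. Values of 20 of the 93 (21.5%) did not overlap between the genotypes, where 22.5% of all tested genes did not. In the SIN3 complex, 0 of 12 passed and the median was 0.05, with the DNA-binding subunits Arid4a at -0.54 ± 0.28 (SE) and Arid4b at -0.57 ± 0.33. Both were lowest in Hdac3 CKO replicate 1, and without it stood at -0.26 and -0.24, the list's median then being -0.02. Leaving out Hdac3 CKO replicate 2 instead put Arid4b at -0.87. In the NuRD complex, 0 of 12 passed and 10 of the 12 were above 0, with a median of 0.08, but 4 were above 0 without Hdac3 CKO replicate 1, with a median of -0.02. The chromatin remodeller Chd3 of this complex had 200, 172 and 172 CPM in wild type and 216, 260 and 240 CPM in Hdac3 CKO, at 0.39 ± 0.13, and the methyl-binding-domain protein Mbd3 stood at 0.25 ± 0.19. Mbd3 was high in Hdac3 CKO replicate 1, at 107 CPM against 61.6 to 78.6 CPM in the other 5, and stood at 0.01 without it, at 0.39 without Hdac3 CKO replicate 2 and at 0.16 without wild type replicate 1. In the CoREST and MiDAC complexes, 0 of 11 passed, the median was -0.20, and the scaffolds Rcor1 and Rcor3 both stood at -0.29. This median was -0.03 with the erythroid covariate, -0.12 if Hdac3 CKO replicate 2 was left out and -0.10 if wild type replicate 1 was. Rcor1 was at -0.18 without Hdac3 CKO replicate 2 and -0.19 without wild type replicate 2, and Rcor3 at -0.45 without Hdac3 CKO replicate 3. Library totals in place of TMM factors lowered list medians and the median of all tested genes together, and the list counts above that median, 10 of 12 for NuRD, 8 of 12 for SIN3 and 4 of 11 for CoREST and MiDAC, were equal under both.

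Of the 6 genes of the HDAC3 complex, 0 rose and 1 fell, Hdac3 itself, with a median of 0.04. None of 7 sirtuins, the NAD-dependent class III deacetylases, passed, with a median of 0.09 (-0.14 without Hdac3 CKO replicate 1). The mitochondrial Sirt3 stood at 0.28 ± 0.18 and the nuclear Sirt1 at -0.48 ± 0.32, the latter with 7.19 CPM in Hdac3 CKO replicate 1 and 12.4 to 21.8 CPM elsewhere. Sirt3 was highest in that library, at 18.1 CPM against 10.6 to 13.2 CPM. Without it Sirt3 stood at 0.08 and Sirt1 at -0.19, and without Hdac3 CKO replicate 2 Sirt1 stood at -0.93.

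Among MEF2 factors and the YWHA phosphoprotein-binding proteins, which hold phosphorylated class IIa enzymes in the cytoplasm, 0 of 11 passed, with a median of 0.01. Ywhag stood at 0.33 ± 0.18 (SE) and Sfn at 0.34 ± 0.21. Ywhag was high in Hdac3 CKO replicate 1, at 262 CPM against 152 to 188 CPM in the other 5, and stood at 0.11 without it. Of 13 kinases known to phosphorylate class IIa enzymes 0 passed, with a median of -0.02. The calcium-dependent kinases Camk2b and Camk2a stood at 0.53 ± 0.19 and 0.41 ± 0.16, both highest in Hdac3 CKO replicate 1, at 184 and 148 CPM, and Camk2b stood at 0.29 without it. The summed skeletal muscle markers were also highest in that library, at 47200 CPM against 25600 to 31100 CPM in the other 5, and their part in these values was not tested.

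Of 12 cohesin genes and regulators, the pathway of the HDAC8 substrate SMC3, 0 passed in edgeR's test, and all 12 had a log2 fold change below 0, with a median of -0.34 where all tested genes had 0.0010. Pds5b, a regulator of cohesin release, had 90.5, 81.7 and 71.0 CPM in wild type and 36.6, 54.6 and 61.4 CPM in Hdac3 CKO, at -0.67 ± 0.19 (SE). It was the gene that DESeq2 called, with an adjusted p of 0.042, against 0.15 in edgeR's quasi-likelihood test. Esco2, an acetyltransferase of SMC3, stood at -0.59 ± 0.26 and was lowest in Hdac3 CKO replicate 1, at 5.38 CPM, as was Pds5b. Without that library the list's median was -0.16, 2 of the 12 were above 0 and Esco2 stood at -0.34. The median was -0.63 without Hdac3 CKO replicate 2, -0.67 with the erythroid covariate and -0.52 with library totals, where all tested genes had -0.18. Summed proliferation markers were 529 to 610 CPM in wild type and 387 to 530 CPM in Hdac3 CKO, lowest in the same library. The 8 markers did not move together: 0 passed the test and 3 had a log2 fold change above 0. Without overlap, 2 were higher and 3 lower in Hdac3 CKO, where 11.5% and 10.9% of all tested genes were. With the mean log2 CPM of these markers as a covariate the cohesin median was 0.45, with 9 of the 12 above 0. That covariate did not overlap between the genotypes, at 5.53 to 5.67 in wild type and 5.23 to 5.48 in Hdac3 CKO. The erythroid covariate did not overlap either, so fits with them cannot tell them apart from genotype. With the proliferation covariate the medians of the other lists ran from -0.22 (sirtuins) to 0.29 (HDAC3 complex). That of NuRD was -0.15, with 2 of 12 above 0. In polyamine metabolism, the pathway of the HDAC10 substrate, 0 of 10 passed, with a median of 0.15, which was -0.02 without Hdac3 CKO replicate 1 and 0.06 without wild type replicate 1. Spermine oxidase, Smox, had 25.6, 23.1 and 31.2 CPM in wild type and 35.9, 34.9 and 33.3 CPM in Hdac3 CKO, at 0.38 ± 0.14, and spermidine synthase, Srm, stood at 0.39 ± 0.15, or 0.25 without Hdac3 CKO replicate 1.

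**Figure D4:**
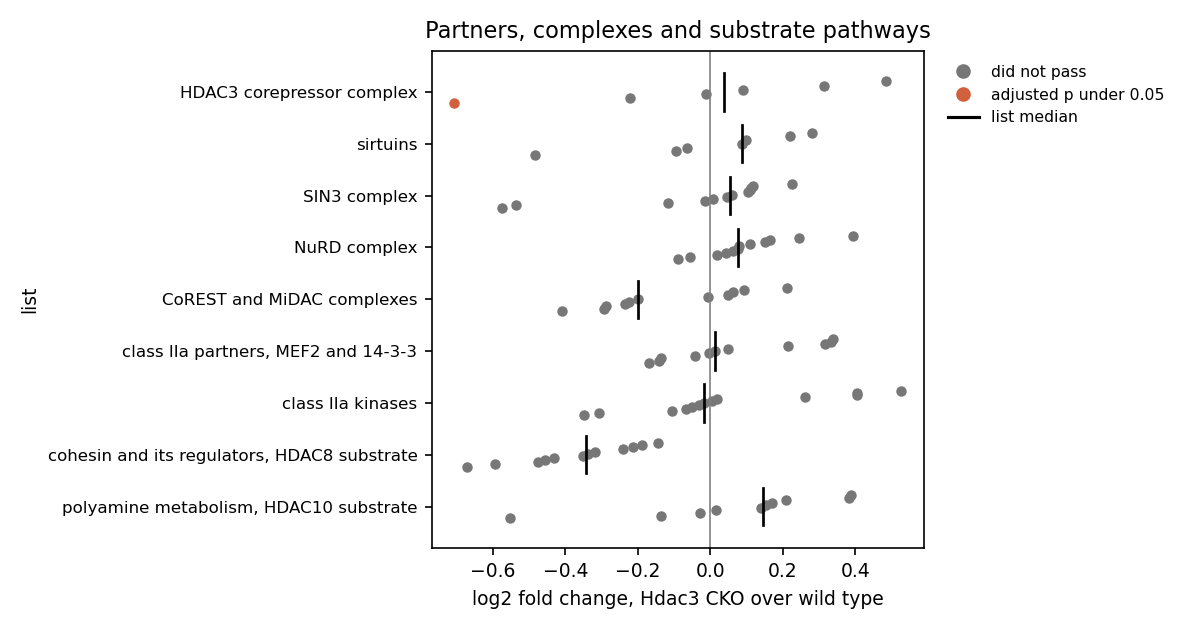
Log2 fold change of Hdac3 CKO over wild type for every tested gene of 9 lists of deacetylase partners, complexes and substrate pathways, with the median of each list (black line). Hdac3 is the single gene that passed the test (orange), and all 12 genes of the cohesin list lie below 0.

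Total counts ran from 43389262 to 50927978 per library. All 8 osteoblast markers were detected in all 6 libraries and their sum was 45900 to 61000 CPM in wild type and 70400 to 101000 CPM in Hdac3 CKO. Of the 8, 0 passed the test and 6 had a log2 fold change above 0. Without overlap, 4 were higher and 1 lower in Hdac3 CKO, where 11.5% and 10.9% of all tested genes were. Summed markers of neutrophils (88.8 to 271 against 18.2 to 28.1 CPM), B lymphoid cells (58.2 to 84.8 against 26.0 to 41.6 CPM) and red cell precursors (263 to 434 against 169 to 211 CPM) were lower in Hdac3 CKO without overlap. Those of macrophages and osteoclasts were higher, at 961 to 1600 against 1620 to 2090 CPM. Summed endothelial markers overlapped, at 569 to 688 against 666 to 821 CPM, but the 8 genes differed. A log2 fold change above 0 was found for 6 of them, and without overlap 2 were higher and 2 lower. Of these lists, 1 gene, Pax5 of the B lymphoid list, had 0 counts in some library. The part of these cells in the values of the deacetylases was not tested. Cartilage markers were high in replicate 3 of both genotypes, at 6900 and 14500 CPM, against 808 to 1470 CPM in the other 4. Without these 2 libraries 0 of the 10 members passed, with Hdac2 at -0.41 and Hdac7 at 0.17, but then 0 of all genes passed, Hdac3 included. Hdac3 CKO replicate 3 also differed in sex-linked genes, with Ddx3y at 48.1, Eif2s3y at 38.0, Kdm5d at 27.2, Uty at 18.9 and Xist at 19.3 CPM, where Xist was 700 to 2090 CPM and each of the Y-linked genes at most 2.42 CPM in the other 5. The X-linked members Hdac6 and Hdac8 lay, in that library, within the range of the other Hdac3 CKO libraries.

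**Figure D5:**
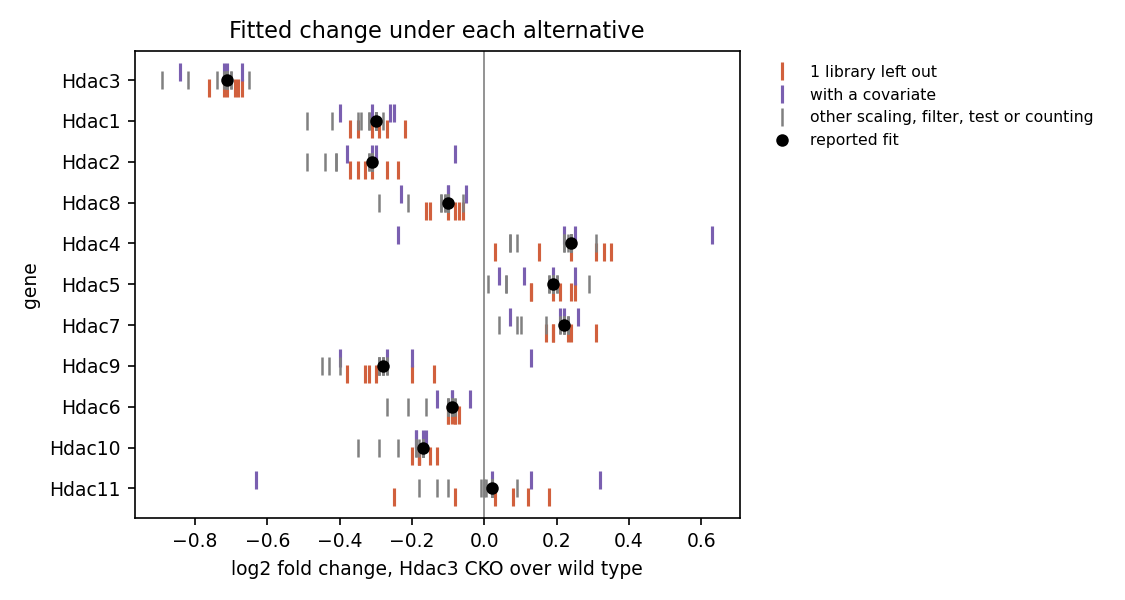
Log2 fold change of Hdac3 and the 10 other deacetylases in the reported fit (black) and under 23 alternatives: leaving out 1 library (orange), a covariate (purple) or another scaling, filter, test or counting (grey). Grey also marks the fit without both cartilage-rich libraries. Hdac4, Hdac9 and Hdac11 cross 0 under some alternative, and the other 7 members keep their side.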

How the data were processed

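RNA-seq of 6 limb bone libraries, 3 wild type and 3 Hdac3 CKO, was used. The authors deposited raw read counts per gene. The tools named in the submitters' processing notes are TopHat2 2.1.0, bcl2fastq 1.8.4, featureCounts and Subread, with genome build mm10. How strand and multiple matches were handled was not given there. The authors also deposited RPKM values, which were found to equal counts divided by the table's gene length plus 1 base and scaled by a library total larger than the summed gene counts. Gene lengths are those of the deposited table.

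Counts were TMM-normalised in edgeR 4.0.16 (R 4.3.3). Its filter on low counts left 20210 genes. Genotypes were compared with the quasi-likelihood test, robust, without covariates, and Benjamini-Hochberg adjustment over all tested genes at 0.05. Intervals are the estimate plus or minus the t quantile times its standard error. Alternatives included DESeq2 1.42.0 and limma 3.58.1. Named genes were the members, Hdac3, and from each list the genes that passed and the 2 with the smallest p. Of these, 1 gene is not reported here. Members and lists were chosen with earlier results of these data known. Of the table's gene identifiers, 98.0% were found in GENCODE M21, which gave exons and transcripts. Promoters are from RefSeq (GRCm38.p6).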

Additional observations from a re-analysis of the deposited data

How the results depend on the processing

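Of the 10 members, 0 were higher and 0 lower under all 23 alternatives, of which 2, the older edgeR quasi-likelihood method and the addition of Gm10093 and Gm26720, were added after seeing the data, as were M21 exon lengths. The members' median was -0.28 with library totals, and the ratio of their summed level was 0.976 with TMM-normalised CPM per kilobase. The sign changed for Hdac4 with the erythroid covariate (-0.24), for Hdac9 with the proliferation covariate (0.13) and for Hdac11 with library totals (-0.18), log2 RPKM with a pseudocount of 0.1 (-0.13) or 1 (-0.10), limma-voom (-0.01), the proliferation covariate (-0.63) and without replicate 1 of Hdac3 CKO (-0.25) or wild type (-0.08), with -0.25 to 0.18 over the 6 omissions. Hdac3 stayed below 0 throughout and missed the threshold with the Y-linked (-0.67), cartilage (-0.71), erythroid (-0.72) and proliferation (-0.84) covariates, with log2 RPKM plus 1 (-0.74), without both cartilage-rich libraries (-0.65), and without any 1 library other than Hdac3 CKO replicate 1, with values of -0.76 to -0.67 over the 6 omissions. The cause was not tested. The number of genes that passed was 852 in DESeq2, 318 with no filter, 102 with the Y-linked covariate, 139 with the cartilage covariate, 140 and 96 on log2 RPKM, 157 in limma-voom, 1 with the erythroid or the proliferation covariate, 0 without both cartilage-rich libraries and 23 to 175 without 1 library, against 238. A count of 0 members where few genes of any kind passed says little. The erythroid covariate was 4.39 to 5.01 in wild type and 3.36 to 4.13 in Hdac3 CKO, and the proliferation covariate did not overlap either. Fits with these covariates cannot separate them from genotype. No paired analysis was possible because the labels carry no replicate numbers shared by the genotypes.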
